A study of Mus musculus with 2 samples.

Results

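Integrins are the receptors that hold a cell to the matrix around it, and laminins are large matrix proteins that many of them bind. The measurements described here cover 35 mouse genes, 25 for integrin α and β chains and 10 for laminin chains, on 2 gene expression microarrays of mouse cardiomyocytes (MCMs) with and without *Ppp2r5d* knockdown. A gene was included when its symbol was the gene name of a probe that was not a control spot, which gave 90 of 56605 probes and 35 of 37073 gene names. The rule itself uses the gene name and no measured value, but the list of genes was drawn up with earlier results of these data known.

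An integrin is a pair of 1 α chain and 1 β chain, and mostly the α chain sets the ligand, which can be a laminin, a collagen or a protein with the RGD motif such as fibronectin. A laminin is a trimer of 1 α, 1 β and 1 γ chain and is a main component of the basement membrane that surrounds muscle cells. In heart muscle, laminin outside the cell is tied to the cytoskeleton through integrins and through dystroglycan, and the same receptors carry mechanical load and signals into the cell.

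The MCMs were bought as cultured cells, grown in DMEM with 2% fetal bovine serum and used between passages 10 and 20. A culture was transfected, with Lipofectamine RNAiMAX, either with a negative control siRNA (siRNA-NC, written siRNA-nc in the sample labels) or with an siRNA against *Ppp2r5d* (siRNA-*Ppp2r5d*, siRNA-ppp2r5d in the labels), which encodes a regulatory subunit of protein phosphatase 2A. Both cultures were moved to glucose-free medium at 48 h and their RNA was taken at 64 h, so the control shared the glucose withdrawal. The Cyanine 3 label of each RNA was read on 1 array of 60-base probes, so no difference below has a replicate check, no test could be run, and every value describes these 2 arrays.

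On each array 59305 spots were not controls. Of these, 35544 were well above background for siRNA-NC and 35174 for siRNA-*Ppp2r5d*, by the criterion of the scanner software, and 0 were saturated. Intensities are background-corrected spot brightness. A log2 fold change is siRNA-*Ppp2r5d* over siRNA-NC after both arrays were set to the same 75th percentile, and a gene has the mean over those of its probes that passed the background criterion on both arrays. The ± after an intensity is the error that the scanner software gives to a spot. The ± after a log2 fold change was computed from these errors on both arrays. For a gene value it is the error of the mean over probes, with their errors treated as independent. Neither includes the spread between cultures. At bright probes the scanner error was close to a fixed share of the intensity, such as 2930 for 29300 and 2574 for 25740 at *Itgb5*. There the ± is not a measured spread. Between spots of the same probe the log2 fold change had a median SD of 0.211 below an intensity of 100, from 8 probes printed 10 times each, and of 0.0352 above 1000, from 275 such probes. *Ppp2r5d* had an intensity of 4701 with siRNA-NC and 676 with siRNA-*Ppp2r5d*, 6.09-fold lower. Of 13 cardiomyocyte markers, 8 passed this criterion on both arrays, the brightest being *Actc1* with 6443 and 5268. Another 2 passed on 1 array and 3 on neither (*Myl2*, *Myl7* and *Pln*). Dim among the 8 were *Tnni3* with 54.1 and 46.0, *Myh7* with 48.2 and 42.8 and *Myl3* with 40.4 and 66.2 at their brightest probes. Of 9 fibroblast markers, 7 passed on both, among them *Col1a1* with 72470 and 67290, and 2 on neither (*Thy1* and *Tcf21*). Summed over all probes, the cardiomyocyte markers had 10740 with siRNA-NC and 10090 with siRNA-*Ppp2r5d*. The fibroblast markers had 429200 and 390900. In such a bulk culture, fewer cells of a type and less RNA per cell cannot be told apart.

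Of the 35 genes, 27 had a probe well above background on both arrays, 2 on the siRNA-NC array alone (*Itga2* and *Itgax*) and 6 on neither. The 6 were the integrin chains *Itga2b*, *Itga4*, *Itgb6* and *Itgb8* and the laminin chains *Lama3* and *Lamc3*. Over the 90 probes, 53 passed on both arrays, 3 with siRNA-NC alone, 2 with siRNA-*Ppp2r5d* alone and 32 on neither.

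The differences past 2-fold, the fold threshold of the study, rest on the 8 probes below, whose first 30 of 60 bases are shown because each call depends on the letters of 1 or 2 probes. They were read 5′ to 3′ from the scanner files, which place them on build mm9. The place of each within exons and untranslated regions was not analysed here. The order is *Itga8* at chr2:12028462-12028521 on the minus strand, *Itga9* at chr9:118807900-118807959 on the plus strand, *Itga2* at chr13:115626714-115626773 on the minus strand, *Itgax* at chr7:135284029-135284088 on the plus strand, *Itgb2* at chr10:77027978-77028037 on the plus strand, *Lama1* at chr17:68171924-68171983 on the plus strand, and *Lamb3* at chr1:195167088-195169619 and at chr1:195170009-195170068, both on the plus strand. The first *Lamb3* probe covers 2532 bases of the genome with 60 bases.
Itga8: catacattggtattctcgaggagtctatct
Itga9: taccttcagctttgtgtagccaaaaaagcc
Itga2: ctcggcttcttcaaaagacaatataagaaa
Itgax: actcgagttaaaactcttggtctgaacaag
Itgb2: aaagctagagcatgagttatcataatcaag
Lama1: atgttgaactaaagccacacggacaacaga
Lamb3, first: aatgaaagacatggagtcagaactgcttcg
Lamb3, second: tgtatgaacacaaaacccaataaaaatctt

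Counting the 29 genes seen above background on either array, 3 differed upwards by 2-fold or more with siRNA-*Ppp2r5d* (*Itga8*, *Itgb2* and *Lamb3*), beside 1.09% of all 21701 such genes on the arrays. At least 2-fold lower were 4 (*Itga2*, *Itga9*, *Itgax* and *Lama1*), beside 1.47% of all genes. *Itga2* and *Itgax* entered the 29 only through the siRNA-NC array, where they were brighter. The 7 genes past 2-fold lay among the dim probes, and no gene with a brighter probe was among them. Of 9 members measured on both arrays with every probe under a mean intensity of 500, 3 were past 2-fold higher and 2 lower, beside 1.58% and 1.99% of the 9077 genes of the same kind. The 18 members with a probe at 500 or more had log2 fold changes between -0.61 and 0.70. The cut at 500 was not among the planned comparisons, so this split is a description only. The median log2 fold change was 0.0076 over the 19 integrin chains measured on both arrays and -0.077 over the 8 laminin chains, beside 0.026 over all 20350 genes measured on both. When the arrays were scaled to their spike-in control spots instead, the median of all genes was -0.19, and 6 members with values near 0 (*Itga5*, *Itgav*, *Itgam*, *Itgae*, *Itgb5* and *Lamc1*) turned from above 0 to below 0.

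**Figure D1:**
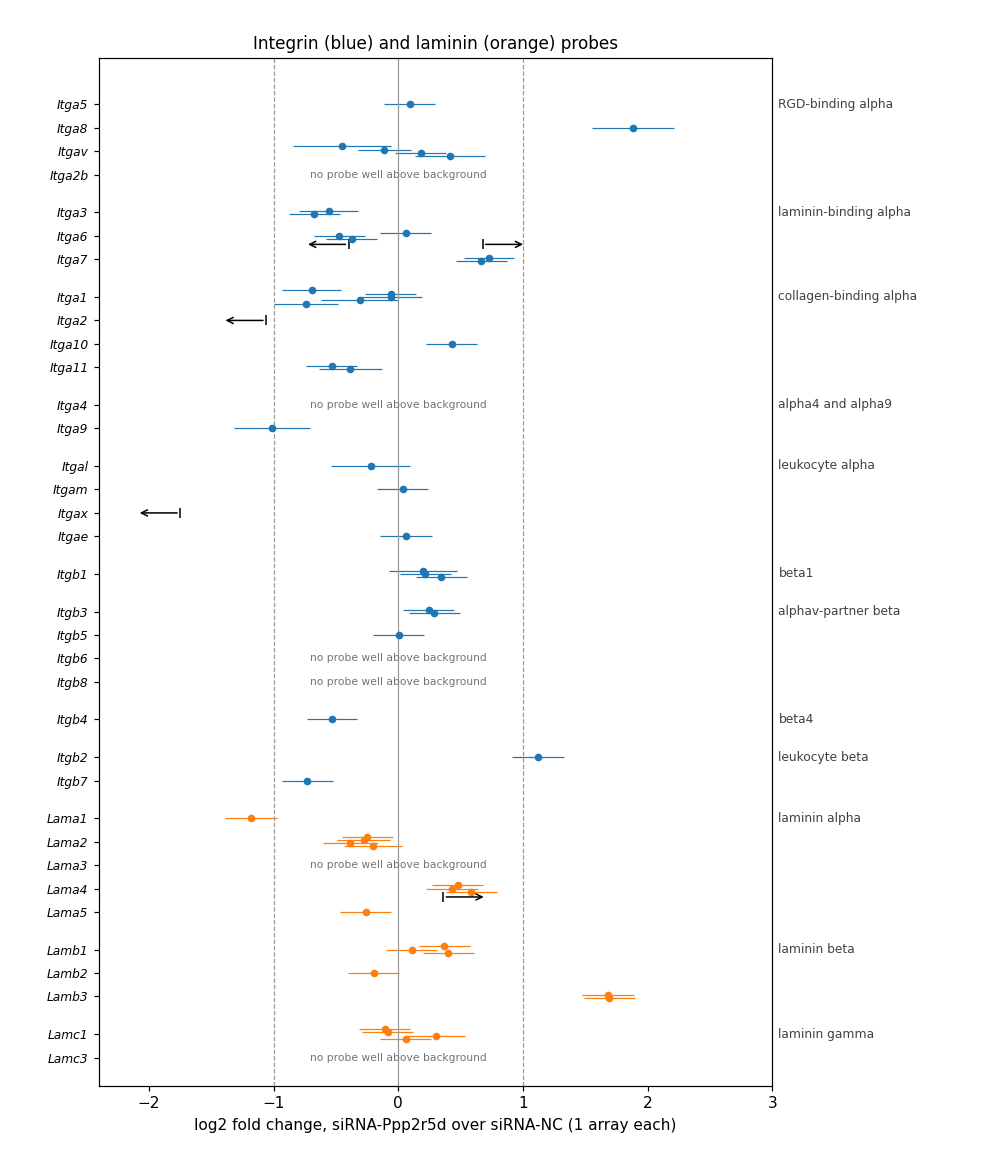
Log2 fold change of each probe (x axis, siRNA-*Ppp2r5d* over siRNA-NC, 1 array each) for the 35 genes (y axis), grouped by ligand or chain class. Points are probes well above background on both arrays, with an error computed from the spot errors of the scanner software. Arrows start at the bound for a probe well above background on 1 array, and dashed lines mark 2-fold. Most points lie between the dashed lines, and *Itga8*, *Itgb2* and *Lamb3* lie to the right of them.

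Among the α chains that bind RGD-containing ligands, *Itga8* was higher while *Itga5* and *Itgav* were close to 0. *Itga8*, whose product pairs with the β chain of *Itgb1* and binds nephronectin and fibronectin, had an intensity of 17.8 ± 3.55 with siRNA-NC and 57.5 ± 6.35 with siRNA-*Ppp2r5d*, a log2 fold change of 1.89 ± 0.33 or 3.70-fold. Both signals were low on the scale of the array, and its second probe, annotated to an Ensembl transcript, was not well above background on either array. *Itga5*, the α chain of the classical fibronectin receptor, had 963 and 897, a log2 fold change of 0.091 ± 0.204.

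*Itgav*, which pairs with several β chains and binds vitronectin and fibronectin, was measured by 4 probes that did not all point the same way. Its brightest probe had 12130 and 12020, a log2 fold change of 0.18. The other probes gave -0.45, -0.11 and 0.41 at intensities under 125, so that the gene value of 0.0076 is a mean over probes of opposite signs. This was the widest spread among the 13 members with several probes well above background on both arrays, with a range of 0.87 on the log2 scale, beside a median range of 0.16. In 10 of these 13 members all probes pointed the same way.

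The laminin-binding α chains pointed opposite ways, with *Itga7* higher and *Itga3* lower, both under 2-fold. *Itga7*, which with the product of *Itgb1* forms the main laminin receptor of striated muscle, had 39180 and 54450 at its brighter probe and 1301 and 1885 at the other. The log2 fold changes of these probes were 0.67 and 0.73, with a gene value of 0.70 ± 0.14 or 1.62-fold higher. Both probes were brighter with siRNA-*Ppp2r5d*, and the value stayed above 0 in all 10 other ways of processing that gave it a value, between 0.48 and 0.73.

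*Itga3*, a receptor chain for the laminins of *Lama3* and *Lama5*, had 1258 and 691 at 1 probe and 66.9 and 39.8 at the other, with a gene value of -0.61 ± 0.16. Both probes were brighter with siRNA-NC. *Itga6*, a laminin receptor chain that pairs with the products of *Itgb1* or *Itgb4*, was measured on both arrays by 3 probes, which had 3264 and 2059, 1677 and 1529, and 1400 and 947. Their log2 fold changes were -0.47, 0.059 and -0.37, and the gene value was -0.26. Of its other probes, 1 was well above background with siRNA-NC alone (20.3 and 10.6), at least 1.32-fold lower, and 1 with siRNA-*Ppp2r5d* alone (11.2 and 20.9), at least 1.60-fold higher. These 2 dim probes are annotated to different transcripts and pointed opposite ways.

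**Figure D2:**
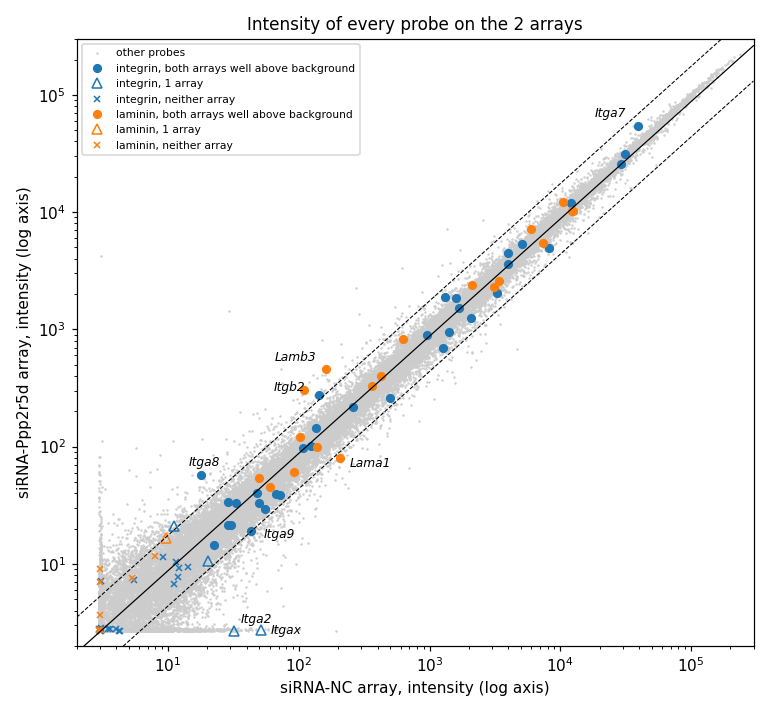
Intensity of every probe on the siRNA-NC array (x axis) and the siRNA-*Ppp2r5d* array (y axis), both log axes in arbitrary units, with integrin probes in blue, laminin probes in orange and all other probes in grey. The solid line is equal signal after scaling to the 75th percentile and the dashed lines are 2-fold. *Itga8*, *Itgb2* and *Lamb3* lie above the upper line and *Lama1* below the lower one at intensities under 500, and *Itga7* lies between the lines near the upper end.

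Of the 4 collagen-binding α chains, 1 was past 2-fold (*Itga2*, lower), and *Itga1*, *Itga10* and *Itga11* were not. *Itga2*, which is known as a collagen receptor of platelets, epithelium and fibroblasts, had 32.1 ± 4.44 with siRNA-NC and 2.68 with siRNA-*Ppp2r5d*, where it was not well above background. Against the lowest signal well above background on that array it was at least 2.09-fold lower. *Itga11*, a fibrillar collagen receptor chain of mesenchymal cells, had 8223 and 4971 at 1 probe and 49.4 and 33.1 at the other, with a gene value of -0.46.

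*Itga1*, which binds basement membrane collagen, had 5 probes on both arrays, with 261 and 219 at the brightest and log2 fold changes from -0.74 to -0.054. All 5 were below 0 and the gene value was -0.37, while the brightest probe alone gave -0.061. *Itga10*, a collagen receptor chain known from cartilage, had 1580 and 1864 at 1 probe, a log2 fold change of 0.43, and its other probe was not well above background on either array.

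*Itga9*, whose product binds tenascin-C and VCAM-1, had 43.5 ± 5.30 with siRNA-NC and 18.9 ± 3.28 with siRNA-*Ppp2r5d*. The log2 fold change was -1.01 ± 0.31 or 2.01-fold lower, at the edge of the threshold, from 1 of its 2 probes. Cyclic loess, quantile normalization, the authors' log2 values and scaling to the median of detected probes put it between -0.98 and -0.96, inside the threshold. *Itga4*, the related chain that binds VCAM-1 and fibronectin on leukocytes, had 6 probes and none was well above background.

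Among the chains known from leukocytes, *Itgb2* was past 2-fold higher and *Itgax* past 2-fold lower, and the other 4 were within 2-fold. *Itgb2*, the β chain that is shared by the leukocyte integrins, had 144 ± 14.7 and 273 ± 27.4 at its only probe, a log2 fold change of 1.12 ± 0.21 or 2.17-fold. Under spike-in scaling its log2 fold change was 0.91. Of its α partners, *Itgam* (complement and fibrinogen receptor of myeloid cells) had 4006 and 3592 at the probe above background, a log2 fold change of 0.035, and 12.1 and 9.18 at the other.

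*Itgal*, the α chain that binds ICAM proteins on lymphocytes, had 28.8 and 21.6, a log2 fold change of -0.22 ± 0.32. *Itgax*, a marker of dendritic cells and some macrophages, had 51.7 ± 5.99 with siRNA-NC and 2.75 with siRNA-*Ppp2r5d*, at least 3.36-fold lower, while its other 2 probes were not well above background on either array. The *Itga2* and *Itgax* probes were among 60 probes of the siRNA-NC array with an intensity of at least 30 that were under 5 and not well above background on the other array, out of 29230 of at least 30, and 25 probes had the opposite pattern.

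*Itgb7*, which pairs with the α chains of *Itga4* or *Itgae*, had 494 and 261, a log2 fold change of -0.73 ± 0.20 or 1.66-fold lower. *Itgae*, whose product binds E-cadherin, had 107 and 97.6, a log2 fold change of 0.063. The markers of leukocytes gave values in both directions. Of 7, 5 passed the background criterion on both arrays, 1 on 1 array and *Adgre1* on neither, and their summed intensity was 4533 with siRNA-NC and 3033 with siRNA-*Ppp2r5d*, a log2 ratio of -0.39 after the scaling to the 75th percentile. *Ptprc*, the pan-leukocyte antigen, had 0.13 on the log2 scale from 1 of its 7 probes, *Cd68* -0.77, *Lyz2* -0.68, *Csf1r* -0.065 and *Cd3e* 0.53. The fall of the sum lay mainly in the brightest probes of *Lyz2* (1694 and 927) and *Cd68* (1086 and 546). The brightest probes of *Ptprc* (887.5 and 848.4), *Csf1r* (342 and 295) and *Cd3e* (130 and 132) differed less. The part of such cells in the values of *Itgax*, *Itgb2* and *Itgb7* was not tested. Markers of platelets, the cells known for *Itga2b* and *Itga2*, had summed intensities of 300 and 237 (log2 ratio of -0.15 after scaling), with 3 of 4 well above background on both arrays and 1 on 1 array.

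The β chains of matrix receptors stayed within 2-fold. *Itgb1*, the common partner of most α chains described above, had 31080 and 31590 at its brightest probe and 4005 and 4451 at the next, and the 3 log2 fold changes were 0.20, 0.22 and 0.35, with a gene value of 0.25. The probe of 0.20 and the probe of 0.35 share a run of 23 bases. *Itgb3*, a partner of the *Itgav* product, had 5131 and 5324, and 135 and 145, with a gene value of 0.27. *Itgb5*, another partner of the *Itgav* product, had 29300 and 25740, a log2 fold change of 0.0053 ± 0.204. *Itgb4*, which pairs only with the *Itga6* product and anchors epithelial cells in hemidesmosomes, had 2077 and 1258, a log2 fold change of -0.53 from 1 of 3 probes.

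Of the laminin α chains, *Lama1* was lower past 2-fold and *Lama4* was higher under it. *Lama1*, the chain of the early embryonic basement membrane, had 208 ± 21.0 with siRNA-NC and 80.3 ± 8.49 with siRNA-*Ppp2r5d*, a log2 fold change of -1.18 ± 0.21 or 2.27-fold lower, from 1 of 2 probes. *Lama2*, the chain of the muscle basement membrane whose loss causes a muscular dystrophy, had 3095 and 2282 at its brightest probe. Its 4 probes above background ranged from -0.38 to -0.20, all below 0, and the gene value was -0.28.

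*Lama4*, a chain known from the basement membrane of vessels and heart muscle, had 5935 and 7228 at its brightest probe, then 629 and 826, and 102 and 121. These probes had log2 fold changes of 0.48, 0.59 and 0.43, and the gene value was 0.50 or 1.41-fold. A further probe was well above background with siRNA-*Ppp2r5d* alone (9.64 and 16.8), so that all 4 pointed the same way. *Lama5*, a chain of many epithelial and vascular basement membranes, had 7399 and 5406, a log2 fold change of -0.26.

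Of the laminin β chains, *Lamb3* was past 2-fold higher and the others lay between -0.20 and 0.29. *Lamb3*, whose product is part of the anchoring laminin of skin and other epithelia, had 109 ± 11.3 and 307 ± 30.8 at the first probe and 162 ± 16.5 and 459 ± 46.0 at the second. The log2 fold changes were 1.68 and 1.69, which gave 1.69 ± 0.15 or 3.22-fold. It was the single member past 2-fold with more than 1 probe behind the call, and these 2 probes differed by 0.011 on the log2 scale. A further *Lamb3* probe, annotated to an Ensembl transcript, was not well above background on either array (3.041 and 3.635). With that probe averaged in, the log2 fold change was 1.28.

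Neither probe of *Lama3*, whose product is the α chain of the same laminin, was well above background on either array. Epithelial markers were mixed. Of 6, *Krt8* was higher with 55.3 and 211, a log2 fold change of 2.16, *Krt14* had -0.53, *Krt18* was well above background on 1 array, and *Cdh1*, *Epcam* and *Krt5* were on neither array. Their summed intensity was 5352 with siRNA-NC and 3585 with siRNA-*Ppp2r5d* (log2 ratio of -0.39 after scaling). Most of this sum was *Krt14*, with 5215 and 3155. The part of epithelial cells in the *Lamb3* value was not tested.

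*Lamb1*, the common β chain, had 10470 and 12110, 2126 and 2405, and 422 and 398, with log2 fold changes of 0.40, 0.37 and 0.11 and a gene value of 0.29. *Lamb2*, the β chain of the neuromuscular junction and the kidney filter, had 3380 and 2581, a log2 fold change of -0.20. *Lamc1*, the γ chain of most laminins, had a gene value of 0.042 over 4 probes from -0.11 to 0.30. Its brightest probes are shown here because they measure almost the same bases and so are not independent. They share a run of 55 bases, at chr1:155066154-155066213 and chr1:155066156-155066215 on the minus strand, with the shared letters of the first 30 bases in capitals.
Lamc1, first: TGTGGCCCTTTTCAATGTGCCTTCACTTTA
Lamc1, second: acTGTGGCCCTTTTCAATGTGCCTTCACTT
The first had 12510 and 10160 and the second 12340 and 10190, with log2 fold changes of -0.11 and -0.083.

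**Figure D3:**
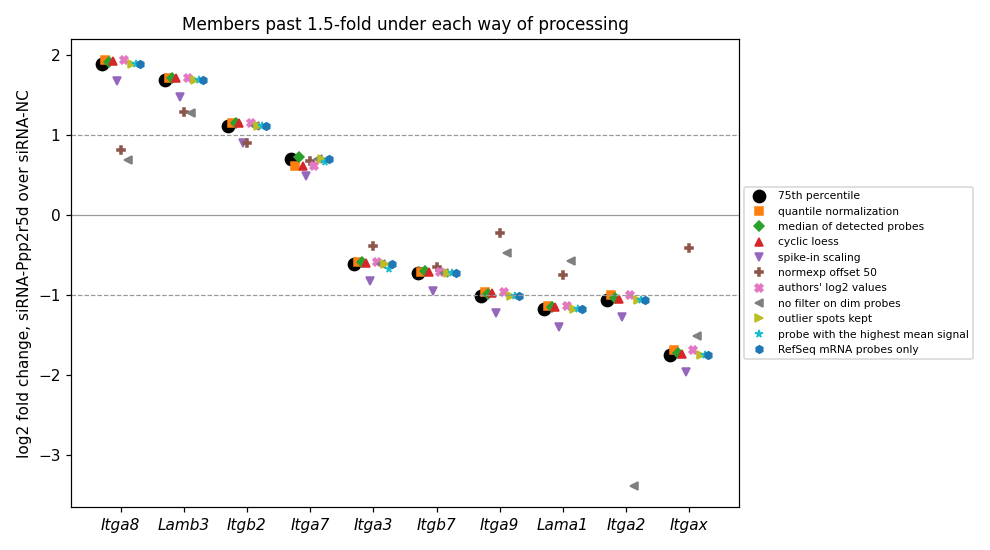
Log2 fold change (y axis, siRNA-*Ppp2r5d* over siRNA-NC) of the 10 members past 1.5-fold (x axis), with 1 symbol for each way of processing and dashed lines at 2-fold. *Itga2* and *Itgax* are bounds, except without the filter on dim probes. There they are plain means over all probes, -3.39 and -1.51, with signals that were not well above background. *Itga2* has no value under normexp correction. Normexp correction draws the dim genes towards 0, with *Itga8* at 0.81 and *Itga9* at -0.23, while *Lamb3* stays past 2-fold at 1.29.

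Genes for the proteins that integrins act through were described from a list of 38 genes of the adhesion machinery. Of these, 34 were measured on both arrays and 0 were past 2-fold in either direction, beside 2.56% of all genes, so that the count is close to the general rate. Their log2 fold changes had a median of -0.014 and ran from -0.61 (*Lims2*) to 0.42 (*Fyn*). *Tln1*, the talin that activates integrins, had 34710 and 33080, a log2 fold change of 0.16. *Flna* (filamin A, a crosslinker of actin) had 0.0059 and *Zyx* (zyxin, of focal adhesions) 0.0082. The integrin-associated tetraspanins *Cd81* and *Cd151* had 0.18 and -0.12. *Fermt1*, *Fermt3*, *Parvg* and *Itgb1bp2* were not well above background on either array.

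Of 27 further basement membrane genes and integrin ligands, 23 were measured on both arrays, 1 was past 2-fold higher and 0 were past it lower. This is 4.35% of these 23 genes, beside 2.56% of all genes seen above background on either array. The median log2 fold change of the 23 was -0.015. The gene past 2-fold was *Nid1*, whose product nidogen links laminin to the collagen network. Its 3 probes had 20420 and 34540, 610 and 1300, and 410 and 832, with log2 fold changes of 0.95, 1.28 and 1.21 and a gene value of 1.15 or 2.22-fold. All 3 probes were brighter with siRNA-*Ppp2r5d*.

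The RGD ligands *Fn1* (fibronectin) and *Spp1* (osteopontin) had log2 fold changes of 0.46 and 0.15, *Thbs1* (thrombospondin) had 0.39, *Fbln5* (fibulin, of elastic fibres) had -0.29 and *Cyr61* (a matricellular protein) had -0.34. Named after their values were seen, *Nov* had 4453 and 7384, a log2 fold change of 0.92, *Ntn4*, a netrin that binds laminin, had 65.8 and 106, a log2 fold change of 0.88, and *Emilin1*, a ligand of the *Itga9* product, had -0.54. *Npnt*, which encodes the *Itga8* ligand nephronectin, *Vtn*, *Icam1* and *Madcam1* were not well above background on either array.

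**Figure D4:**
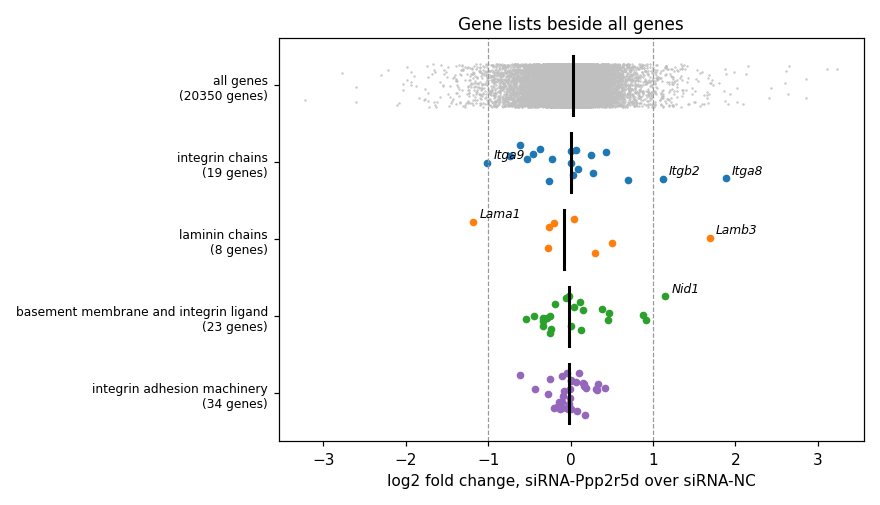
Log2 fold change (x axis, siRNA-*Ppp2r5d* over siRNA-NC) of the genes measured on both arrays, for all genes, integrin chains, laminin chains, basement membrane and ligand genes and adhesion machinery (y axis, vertical scatter has no meaning). Black bars are medians, which lie between -0.077 and 0.026, and dashed lines mark 2-fold. *Itga8*, *Itgb2*, *Lamb3* and *Nid1* lie above 2-fold, *Itga9* and *Lama1* below it, and all adhesion machinery genes lie between the lines.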

How the data were processed

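For both arrays the authors deposited spot intensities from Agilent Feature Extraction 10.7.1.1, which subtracts background array by array and applies no normalization across arrays. A deposited table of log2 values came from GeneSpring, per the study's methods. Set against the intensities it matched a quantile normalization (median absolute difference 1.4e-05 on the log2 scale), and it was used as an alternative.

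Conditions were taken from the sample labels. Control spots and outlier spots (126 with siRNA-NC, 95 with siRNA-*Ppp2r5d* and no member probe among them) were left out, spots of the same probe were averaged, and the 75th percentile of each array (intensities of 593 and 519) was subtracted on the log2 scale. Where a probe passed the background criterion on 1 array alone, a bound was computed, with the other array set to its own signal or, if higher, to the lowest signal that passed there (14.9 with siRNA-NC, 13.5 with siRNA-*Ppp2r5d*). The *t*-test of the study could not be computed with 1 array per condition. The number of arrays limits the precision.

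The member genes, the lists of adhesion machinery, ligands and cell type markers, and the tests were chosen with earlier results of these data known. Every member with a probe well above background was named. Of the list genes, those past 2-fold and up to 5 more, the brightest with siRNA-NC, were to be named, and for the marker lists not all of these are printed. Markers of smooth muscle and endothelium were also measured. All 4 smooth muscle markers were well above background on both arrays. Their log2 fold changes were 2.41 (*Cnn1*), 0.85 (*Tagln*), -0.020 (*Acta2*) and -0.38 (*Myh11*). Summed intensities of these markers were 174800 and 156200, a log2 ratio of 0.030 after scaling. Of 5 endothelial markers, 1 passed on both arrays and 1 on 1 array. Summed intensities of the endothelial markers were 85.0 and 77.7, a log2 ratio of 0.063 after scaling. Probe coordinates are those of the scanner files.

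The alternatives were cyclic loess, spike-in scaling, quantile normalization, scaling to the median of detected probes, the authors' log2 values, normexp correction (offset 50), the brightest probe of each gene, no filter on dim probes, outlier spots retained, and thresholds of 1.5-fold and 4-fold. A further alternative, RefSeq mRNA probes alone, was added after seeing the data. The gene step was tested on simulated data in which each probe had the same background flag on both arrays. The bounds used for *Itga2* and *Itgax* were therefore not covered by it. The software was limma 3.58.1 in R 4.3.3, and pandas 2.3.3, NumPy 2.4.6 and matplotlib 3.10.9 in Python 3.11.15.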

Additional observations from a re-analysis of the deposited data

How the results depend on the processing

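No paired analysis was possible because each condition had a single array, and for the same reason no array could be left out in turn. Normexp correction left 1 member past 2-fold higher (*Lamb3*) and 0 lower, beside 67 higher and 45 lower of all genes. At a 4-fold threshold 0 members were higher and 0 lower, and at 1.5-fold 4 were higher and 6 lower, beside 9.31% of all genes past it in either direction. Without a filter on dim probes 2 were higher and 2 lower (*Itga2* and *Itgax*), and all genes had 957 higher and 1119 lower of 37073. Spike-in scaling left 2 higher and 4 lower, beside 135 higher and 632 lower of all genes. Cyclic loess, quantile normalization, the authors' log2 values and scaling to the median of detected probes gave 3 higher and 3 lower, and the other alternatives gave 3 and 4. The median of integrin chains was -0.21 under spike-in scaling and -0.037 without the filter. The median of laminin chains was -0.12 under cyclic loess, -0.29 under spike-in scaling, -0.15 with the probe of highest mean signal and 0.19 without the filter. Using probes of RefSeq mRNAs alone was added after seeing the data. The cause of these shifts was not tested. Signal over background limits *Itga8*, *Itga9*, *Itga2* and *Itgax*. Without the filter, which averages in the dim probes of the same gene, *Itga8* had a log2 fold change of 0.69, and under normexp correction *Itgb2* had 0.90, *Lama1* -0.75 and *Itgax* -0.41.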
